A study of Mus musculus with 9 samples.

Results

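The genes described here are 54 genes of mitosis: regulators of entry into mitosis, kinetochore and spindle genes, and genes of cytokinesis. They were taken by gene symbol, from a list set with earlier results of these data known, out of 56691 genes counted by RNA sequencing in NIH/3T3, an immortal fibroblast line from mouse embryos. Each of the 54 symbols matched 1 row of the table, and all 54 genes passed the filter on low counts that left 14151 genes for testing. The libraries form 3 groups of 3: co-treated cells, which received UVA at 10 J/cm2 and alpha-arbutin, a glycoside of hydroquinone; UVA cells, which received UVA at 10 J/cm2 alone; and control cells, for which no treatment is given. All cells are labelled wild type and were grown in DMEM with fetal bovine serum. The labels give neither the dose of alpha-arbutin nor the time between irradiation and harvest, and the titles of the UVA libraries call them mock although their treatment field names UVA. The table heads its remaining columns NC, and these were taken as the control libraries because the other headers match the titles of the other groups. Every comparison with control cells rests on that reading. The study asked whether alpha-arbutin counters photodamage. Nothing in the labels says that the 3 libraries of a group came from separate cultures, so the p-values measure the spread between these samples, which may be technical.

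Mitosis is driven by the kinase Cdk1 bound to a B-type cyclin, and ends when the anaphase-promoting complex (APC/C), activated by Cdc20, marks the cyclin and the separase inhibitor securin for destruction. Transcripts of most genes of this machinery accumulate in G2 and M phase, and are held down in resting or p53-arrested cells by a repressor complex that binds the cell cycle homology region (CHR) of their promoters. In fibroblast cultures their summed level is therefore often read as a sign of cycling. In RNA from whole cultures, fewer cells in G2 and M phase and less RNA per cell cannot be told apart.

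The CHR is written TTTGAA or TTTAAA, and many of these promoters also hold CCAAT boxes, the letters bound by NF-Y. Promoter windows from RefSeq (GRCm38.p6, 250 bases before to 50 after the gene start) were given for 44 of the 54 genes, 4 of them with more than 1 window, and a gene was counted if any of its windows held the letters. Searched on both strands, TTTGAA or TTTAAA occurred in 36 of these 44 genes (81.8%), against 30.6% of all 27025 genes in the promoter table. CCAAT occurred in 34 of 44 (77.3%), against 41.1% of all genes, and both letters together in 31 of 44 (70.5%), against 12.2%. The printed windows show how the letters lie in the promoters of 7 genes called in UVA against control cells. They were chosen because they hold both the CHR and the CCAAT letters in the 120 bases before the start, so they illustrate that arrangement and say nothing of how common it is. Other called genes lack it: in Bub1b, Cdca3, Spc25, Racgap1, Hmmr and Kif23 the CHR letters lie after the start, and Nek2 has none. Each is the 120 bases before the gene start, 5′ to 3′ on the strand of the gene, with the CHR letters (TTTGAA or TTTAAA, or TTCAAA as read from the other strand) and the CCAAT letters (or ATTGG as read from the other strand) in capitals. Ect2 (chr3:27153879-27153998), Cdc20 (chr4:118437344-118437463), Ckap2 (chr8:22185820-22185939), Cdk1 (chr10:69352913-69353032) and Gtse1 (chr15:85859587-85859706) were called higher in UVA than in control cells. Espl1 (chr15:102296173-102296292) and Kif11 (chr19:37376262-37376381) were called lower. Ect2, Cdc20, Ckap2 and Cdk1 lie on the minus strand and Gtse1, Espl1 and Kif11 on the plus strand.
Ect2: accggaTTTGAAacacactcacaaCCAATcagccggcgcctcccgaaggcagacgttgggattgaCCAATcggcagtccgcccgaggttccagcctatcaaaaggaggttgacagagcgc
Cdc20: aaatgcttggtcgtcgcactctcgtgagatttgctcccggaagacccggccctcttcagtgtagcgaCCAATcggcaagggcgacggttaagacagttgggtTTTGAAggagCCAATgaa
Ckap2: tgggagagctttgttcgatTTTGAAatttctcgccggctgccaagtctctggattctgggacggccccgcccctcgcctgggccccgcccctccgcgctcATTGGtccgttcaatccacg
Cdk1: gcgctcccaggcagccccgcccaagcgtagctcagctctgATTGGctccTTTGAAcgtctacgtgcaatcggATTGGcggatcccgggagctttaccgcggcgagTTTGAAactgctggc
Gtse1: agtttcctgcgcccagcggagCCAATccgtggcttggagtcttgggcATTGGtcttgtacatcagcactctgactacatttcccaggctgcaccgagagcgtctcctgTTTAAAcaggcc
Espl1: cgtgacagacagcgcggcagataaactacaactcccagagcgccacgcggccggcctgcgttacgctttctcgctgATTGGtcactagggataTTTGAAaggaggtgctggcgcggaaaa
Kif11: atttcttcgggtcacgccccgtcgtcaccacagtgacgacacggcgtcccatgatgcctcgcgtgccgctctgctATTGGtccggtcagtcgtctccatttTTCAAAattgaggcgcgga
Over the whole windows, TTTGAA or TTTAAA occurred in 10 of 11 genes called higher in UVA cells, in 9 of 9 called lower and in 17 of 24 not called. A match is a description of the letters and was not tested as a binding site.

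The members were well expressed and differed widely in level. On the FPKM scale, which allows levels of different genes to be compared per length, Top2a (topoisomerase II, which untangles DNA) stood highest in control cells. It had 111.7 ± 3.53 FPKM in co-treated cells, 112.2 ± 3.32 FPKM in UVA cells and 111.5 ± 2.92 FPKM in control cells (SD, n = 3 each). Cdc20 followed, with 100.9 ± 2.199 FPKM in co-treated cells, 104 ± 3.65 FPKM in UVA cells and 91.0 ± 2.03 FPKM in control cells. Cdca2, which recruits a phosphatase to chromosomes, stood lowest in UVA and control cells, with 6.60 ± 0.309 FPKM in co-treated cells, 6.11 ± 0.206 FPKM in UVA cells and 6.18 ± 0.402 FPKM in control cells. The rarest members by counts, Ccnb2 with 4815 and Cdc25c with 5462 reads over the 9 libraries, are still well covered.

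**Figure D1:**
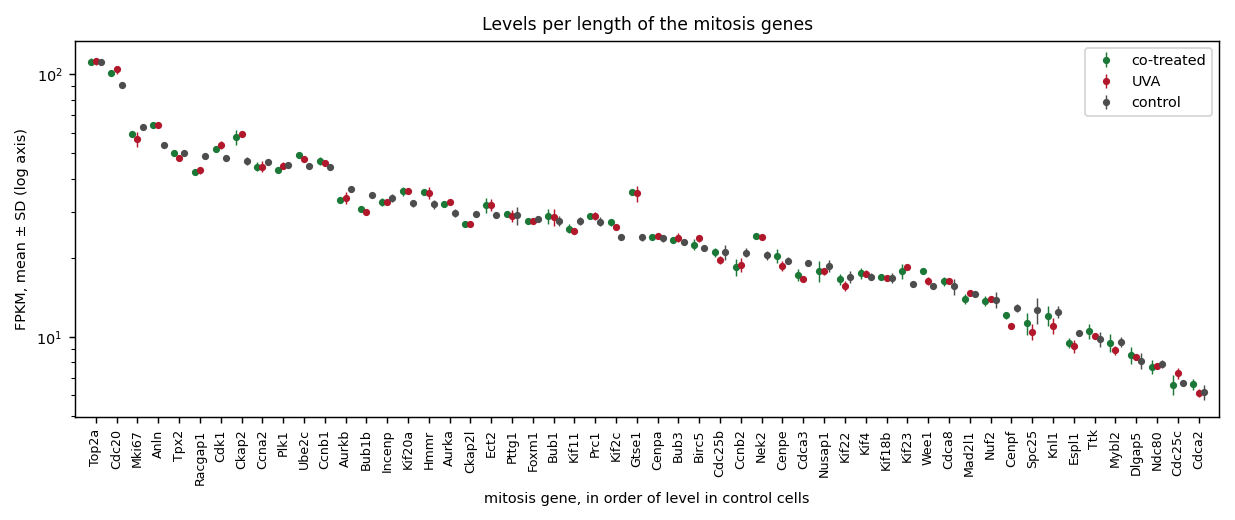
Mean FPKM with SD (n = 3) on a log axis for the 54 mitosis genes, in order of their level in control cells, for co-treated, UVA and control cells. The order runs from Top2a at 111.5 to Cdca2 at 6.18 FPKM in control cells, and for most genes the 3 groups lie close together.

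Each library held between 16.3 and 20.86 counts in units of 1e6. Of 11 fibroblast markers, 9 passed the filter, and all 11 summed to 6050 to 6290 CPM in co-treated, 6270 to 6520 CPM in UVA and 7690 to 7920 CPM in control cells. In UVA against control cells 6 of the 9 were lower, Col1a1 with 293 against 957 CPM among them, and 1 was higher, Vim with a log2 fold change of 0.40. These calls make 77.8% of the 9, against 29.3% of all tested genes. Lum, which did not pass the filter, had no count in UVA cells. Markers of epithelial, endothelial, immune and muscle cells were low, each list summing to at most 6.68 CPM in any library, with Epcam, Krt5, Cd3e and Myod1 at 0 in every group.

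As a sum, the 54 genes were at nearly the same level in every library. The sum was 8185, 8261 and 8495 CPM in co-treated cells, 8422, 8201 and 8229 CPM in UVA cells, and 8037, 8239 and 8003 CPM in control cells, where CPM is counts per 1e6 counts after TMM scaling. Values of the 3 groups overlapped. The Cdk inhibitor and p53 target Cdkn1a separated irradiated from control cells, though not co-treated from UVA cells, with 158, 178 and 197 CPM in co-treated cells, 165, 169.8 and 214 CPM in UVA cells, and 92.1, 96.1 and 90.3 CPM in control cells. Its log2 fold change was 0.98 ± 0.07 in UVA over control cells (SE, adjusted p = 1.89e-11) and 0.94 ± 0.07 in co-treated over control cells (adjusted p = 5.91e-11).

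**Figure D2:**
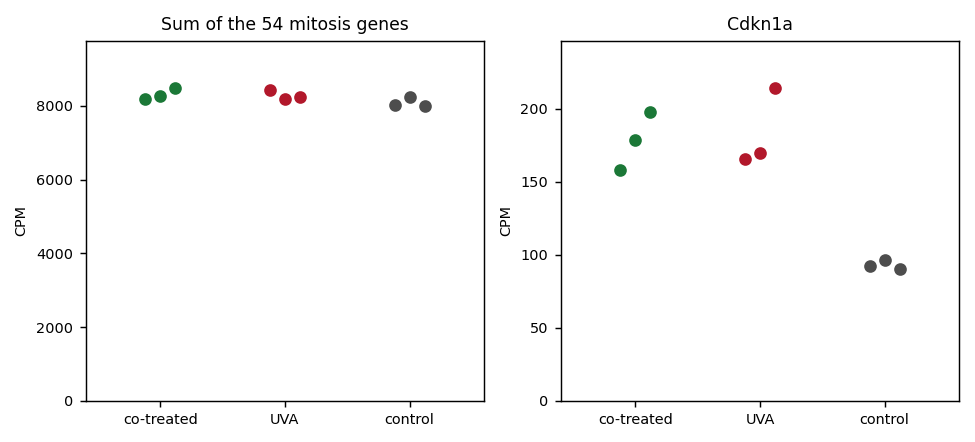
CPM in each library (1 point per library) for the sum of the 54 mitosis genes on the left and for Cdkn1a on the right, in co-treated, UVA and control cells. The sums overlap between 8003 and 8495 CPM, whereas Cdkn1a in irradiated cells, with or without alpha-arbutin, lies above all 3 control values.

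Beneath the steady sum, UVA moved individual members in both directions. Against control cells, 12 mitosis genes were higher in UVA cells and 9 were lower, 21 of 54 in all, at an adjusted p below 0.05 over the 14151 genes tested (edgeR quasi-likelihood F-test with Benjamini-Hochberg adjustment). That is 38.9% of the members, where 29.3% of all tested genes were called. The members are well expressed, and the shares were not compared with those of genes of matched level. The higher members make 22.2% of the list, against 14.7% of all genes, and the lower members 16.7%, against 14.6%. The changes were small: the log2 fold changes ran from -0.26 (Spc25) to 0.57 (Gtse1), with a median of 0.024 in the list and 0.003 over all tested genes. Their median size without sign was 0.098, below the 0.163 of all genes. With limma on log2(TPM + 1), which rescales each library by its length-corrected total, 8 members were higher and 11 lower, and over all genes 1182 were higher and 2287 lower, where edgeR gave 2078 and 2064. Without UVA replicate 3 the count of lower members was 4, without UVA replicate 2 or control replicate 2 it was 5, and without control replicate 1 it was 6; the count of higher members was 8 without control replicate 3.

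In co-treated against control cells, 12 members were higher and 3 lower, 15 of 54 in all (27.8%), close to the 25.8% of all genes called there. Higher calls made 22.2% of the members, against 13.0% of all genes, and lower calls 5.56%, against 12.9%. Of these, 10 higher and 2 lower genes were also called in that direction in UVA against control cells, and 30 members were called in neither, but these comparisons share their control libraries. The median log2 fold change was 0.018, and -0.0092 on TPM. It was 0.0387 without co-treated replicate 1, 0.0307 without control replicate 2 and 0.0092 without co-treated replicate 3. With limma on log2(TPM + 1), 9 members were higher and 6 lower, and over all genes 1252 were higher and 1767 lower, where edgeR gave 1834 and 1823.

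**Figure D3:**
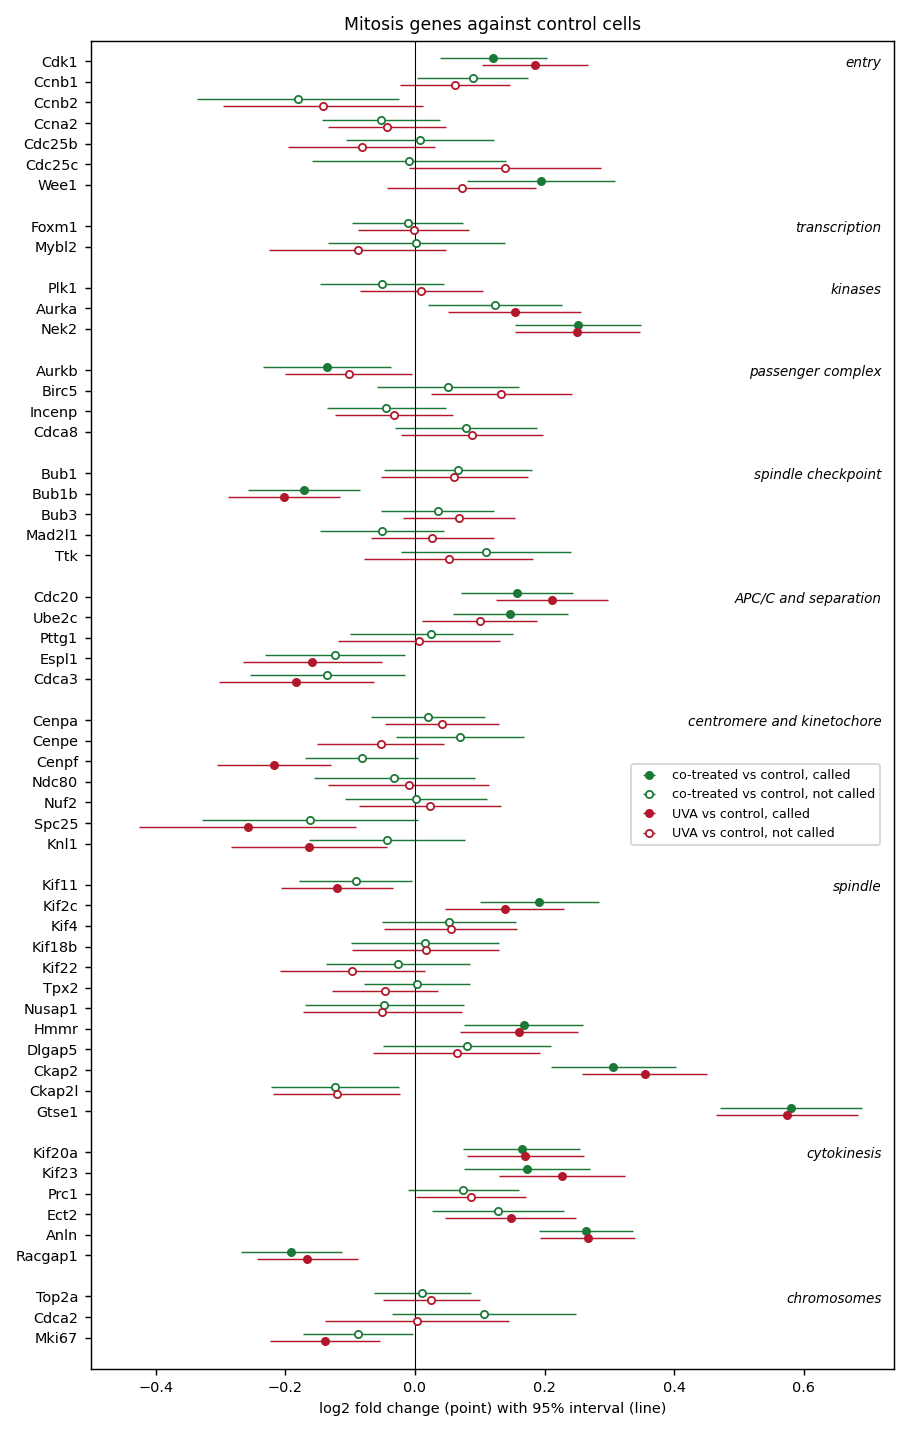
Log2 fold change with its 95% interval for each of the 54 mitosis genes, grouped by role, for co-treated against control cells (green) and UVA against control cells (red). Filled points passed the adjusted p of 0.05 and open points did not. Gtse1 lies farthest to the right at 0.58 and 0.57, and the kinetochore genes hold no filled point on the right.

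Among the 7 genes of entry into mitosis, Cdk1 was higher in both irradiated groups, while its cyclins were not called. Calls made 14.3% of the 7 in UVA against control cells, where 29.3% of all genes were called. In co-treated against control cells they made 28.6%, where 25.8% of all genes were called. Cdk1, the kinase that starts mitosis, lies on chromosome 10 (69170976 to 69188768 on mm39) and had 253, 254 and 261 CPM in co-treated cells, 279, 262 and 262 CPM in UVA cells, and 241, 233 and 232 CPM in control cells. All 6 irradiated libraries lie above all 3 control libraries. The share of all genes without such overlap was not counted, so this and the later statements on overlap are descriptions only. Uncalled members, Birc5 and Dlgap5 among them, also had UVA libraries that did not overlap with control libraries. The log2 fold change over control was 0.12 ± 0.04 in co-treated cells (adjusted p = 0.0253) and 0.19 ± 0.04 in UVA cells (adjusted p = 0.000685). The co-treated call ended without control replicate 2 (adjusted p = 0.0901), control replicate 3 (0.112), co-treated replicate 2 (0.0546) or co-treated replicate 3 (0.0907), with no filter on low counts (0.0735) and on TPM (0.0999). Ccnb1, which encodes cyclin B1, had 199, 190.2 and 205 CPM in co-treated cells, 197, 193 and 193 CPM in UVA cells, and 185, 190.2 and 184 CPM in control cells. Its UVA libraries lie just above the control libraries, but the log2 fold change of 0.06 ± 0.04 did not pass (adjusted p = 0.285). Wee1, the kinase that holds Cdk1 inactive, had 60, 61.3 and 61.7 CPM in co-treated cells, 58.1, 56.2 and 53.9 CPM in UVA cells, and 51.8, 53 and 55 CPM in control cells. It was called in co-treated against control cells alone (0.19 ± 0.06, adjusted p = 0.0101; 0.0551 without control replicate 1), and was 0.07 ± 0.06 in UVA against control cells (adjusted p = 0.37). The UVA values of the other members, Ccnb2, Ccna2 and the Cdk1-activating phosphatases Cdc25b and Cdc25c, ran from -0.14 (Ccnb2) to 0.14 (Cdc25c) on the log2 scale over control, and none was called.

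Foxm1 and Mybl2, transcription factors that switch on late cell cycle genes, were called in no comparison. Foxm1 had 158, 164 and 157 CPM in co-treated cells, 158, 160.5 and 163 CPM in UVA cells, and 158, 159 and 164 CPM in control cells. The 3 groups overlap fully, and the 95% interval of the log2 fold change in UVA over control cells was -0.09 to 0.08 (adjusted p = 0.981). Mybl2 had 40.9, 47.6 and 43.8 CPM in co-treated cells, 39.5, 42.7 and 42.2 CPM in UVA cells, and 41.8, 44.7 and 45.6 CPM in control cells. Its log2 fold change in UVA over control cells was -0.09 ± 0.07 (adjusted p = 0.35).

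Of the 3 kinases of the centrosome and spindle poles, Nek2 and Aurka were higher in UVA cells and Plk1 was not called. These calls make 66.7% of the 3, where 29.3% of all genes were called, but 3 genes are few. Nek2, a kinase that separates the centrosomes, had 106, 112 and 110.0 CPM in co-treated cells, 111, 108 and 109 CPM in UVA cells, and 95.4, 91.8 and 88.5 CPM in control cells. Its irradiated libraries stood above every control library, with log2 fold changes over control of 0.25 ± 0.05 in co-treated cells (adjusted p = 0.000176) and 0.25 ± 0.05 in UVA cells (adjusted p = 0.000151). Aurka, which builds the spindle poles, had 78.8, 81.9 and 82.6 CPM in co-treated cells, 82.8, 81.7 and 84.0 CPM in UVA cells, and 72.1, 77.2 and 74.1 CPM in control cells. It was 0.12 ± 0.05 in co-treated over control cells (adjusted p = 0.0713) and 0.15 ± 0.05 in UVA over control cells (adjusted p = 0.0203). The UVA call ended without control replicate 1 (0.102), control replicate 3 (0.0717) or UVA replicate 3 (0.0629), with no filter (0.0588) and on TPM (0.0652). Plk1, a kinase of centrosome maturation and mitotic exit, had 94.3, 96.8 and 94.5 CPM in co-treated cells, 98.7, 96.8 and 102 CPM in UVA cells, and 97.8, 97.7 and 100.3 CPM in control cells. Its UVA and control libraries overlap, and the log2 fold change was 0.01 ± 0.05 (adjusted p = 0.906).

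The chromosomal passenger complex, which corrects faulty attachments of chromosomes to the spindle, had 4 members in the list. None was called in UVA against control cells, where 29.3% of all genes were called. Aurkb, its kinase, had 95.7, 100.2 and 97.9 CPM in co-treated cells, 100.5, 105 and 95.1 CPM in UVA cells, and 108, 108 and 107 CPM in control cells. All irradiated libraries lie below the control libraries, with a log2 fold change of -0.14 ± 0.05 in co-treated over control cells (adjusted p = 0.0382) and -0.10 ± 0.05 in UVA over control cells (adjusted p = 0.113). The co-treated call ended without control replicate 1, 2 or 3 (0.0992, 0.0997 and 0.083), without co-treated replicate 1 or 3 (0.108 and 0.0835) and with no filter (0.0519). Birc5 (survivin) had a log2 fold change of 0.13 ± 0.05 in UVA over control cells (adjusted p = 0.0585), and those of Incenp and Cdca8 (borealin) were -0.03 and 0.09.

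The spindle checkpoint, which holds anaphase until all kinetochores are attached, had 1 called member of 5. That is 20%, where 29.3% of all genes were called in UVA and 25.8% in co-treated against control cells. With 5 genes, 1 call cannot be told apart from these shares. Bub1b encodes BubR1, a part of the inhibitor of Cdc20, and lies on chromosome 2 (118428692 to 118472072 on mm39). It had 133, 131 and 131 CPM in co-treated cells, 127, 127 and 132 CPM in UVA cells, and 148, 147 and 149.6 CPM in control cells, with no overlap between irradiated and control libraries. Its log2 fold change over control was -0.17 ± 0.04 in co-treated cells (adjusted p = 0.00288) and -0.20 ± 0.04 in UVA cells (adjusted p = 0.000488). Bub1, Bub3, Mad2l1 and Ttk had log2 fold changes of 0.06, 0.07, 0.03 and 0.05 in UVA over control cells, none called.

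The genes of the APC/C and of sister separation moved in both directions. Of the 5, 1 was higher and 2 were lower in UVA than in control cells (60%, against 29.3% of all genes). In co-treated against control cells 2 were higher and none lower (40%, against 25.8% of all genes). Espl1 and Cdca3 were not called there (adjusted p = 0.0881 and 0.0927). Cdc20, the activator of the APC/C (chromosome 4, 118290098 to 118294549 on mm39), had 189, 192 and 185 CPM in co-treated cells, 196, 203 and 189 CPM in UVA cells, and 170.4, 172 and 166 CPM in control cells. It was higher than control by 0.16 ± 0.04 in co-treated cells (adjusted p = 0.00568) and by 0.21 ± 0.04 in UVA cells (adjusted p = 0.000283) on the log2 scale, with no overlap. Ube2c, the ubiquitin-conjugating enzyme that works with the APC/C, had 126, 130.1 and 129.9 CPM in co-treated cells, 125, 123 and 126 CPM in UVA cells, and 115, 116 and 118 CPM in control cells. Its libraries were also separate from control, and the log2 fold change passed in co-treated cells (0.15 ± 0.04, adjusted p = 0.0119; 0.053 without control replicate 1) but not in UVA cells (0.10 ± 0.04, adjusted p = 0.0854). Espl1, which encodes separase, the protease that cuts cohesin, had 84.5, 85.5 and 79.0 CPM in co-treated cells, 83.5, 84.0 and 75.7 CPM in UVA cells, and 91.5, 88.2 and 91.3 CPM in control cells. It was lower in UVA than in control cells (log2 -0.16 ± 0.05, adjusted p = 0.023), and this ended without control replicate 1 (0.0785), control replicate 3 (0.0822) or UVA replicate 3 (0.159). Cdca3, a substrate of the APC/C, had 46.9, 52.4 and 49.2 CPM in co-treated cells, 47.9, 48.5 and 47.3 CPM in UVA cells, and 55.2, 54.2 and 53.8 CPM in control cells. It was lower in UVA than in control cells too (-0.18 ± 0.06, adjusted p = 0.0185), but not without control replicate 1 (0.065) or UVA replicate 3 (0.0577). Pttg1 (securin) was at 0.01 ± 0.06 and was not called.

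All 3 called genes among the 7 of the centromere and kinetochore were lower in UVA cells. They make 42.9% of the 7, where 29.3% of all tested genes were called and 14.6% were lower. In co-treated against control cells none of the 7 was called, where 25.8% of all genes were called. There Spc25 was at -0.16 ± 0.08 (adjusted p = 0.155) and Knl1 at -0.04 ± 0.06 (adjusted p = 0.639). Cenpf, a large protein of the outer kinetochore (chromosome 1, 189372803 to 189420283 on mm39), had 182, 185 and 194 CPM in co-treated cells, 171, 167 and 173 CPM in UVA cells, and 202, 203 and 190.1 CPM in control cells. The UVA libraries lie below all others, and the log2 fold change over control was -0.08 ± 0.04 in co-treated cells (adjusted p = 0.168) and -0.22 ± 0.04 in UVA cells (adjusted p = 0.00024). Spc25, a subunit of the Ndc80 complex that binds microtubules, had 34.8, 33.2 and 39.9 CPM in co-treated cells, 36.4, 32.1 and 32.4 CPM in UVA cells, and 35.8, 45.0 and 39.9 CPM in control cells. UVA and control libraries overlap, at -0.26 ± 0.08 (adjusted p = 0.0171), and the call ended without control replicate 2 (0.158), UVA replicate 2 (0.0685) or UVA replicate 3 (0.0605) and with limma on log2(FPKM + 1) (0.0637) or log2(FPKM + 0.1) (0.0603). Knl1, the scaffold that recruits the Bub proteins, had 110.1, 93.1 and 106 CPM in co-treated cells, 102, 90.3 and 92.0 CPM in UVA cells, and 101, 111 and 107 CPM in control cells. These groups overlap too, at -0.16 ± 0.06 in UVA over control cells (adjusted p = 0.0367), and the call ended without control replicate 2 (0.169), control replicate 3 (0.102), UVA replicate 2 (0.149) or UVA replicate 3 (0.112) and with limma on FPKM (0.107 and 0.104) or TPM (0.0662). The partners of Spc25 in its complex, Ndc80 and Nuf2, were at -0.01 ± 0.06 and 0.02 ± 0.05, the centromeric histone Cenpa at 0.04 ± 0.04 and the kinesin Cenpe at -0.05 ± 0.05, none called.

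The spindle genes held the largest change of the list. Of the 12, 4 were higher and 1 lower in UVA than in control cells (41.7%, against 29.3% of all genes). In co-treated against control cells 4 were higher and none lower (33.3%, against 25.8% of all genes). Gtse1, which stabilises microtubules and binds p53 in G2, lies on chromosome 15 (85743946 to 85760774 on mm39) and had 96.3, 96.9 and 99.6 CPM in co-treated cells, 90.4, 97.6 and 104 CPM in UVA cells, and 63.4, 67.4 and 65.1 CPM in control cells. It was 49.5% higher than control in co-treated cells (log2 0.58 ± 0.05, adjusted p = 1.58e-09) and 48.9% higher in UVA cells (0.57 ± 0.05, adjusted p = 1.63e-09), and every irradiated library lies above every control library. Ckap2, a spindle microtubule protein (chromosome 8, 22658176 to 22675835 on mm39), had 172, 185 and 198 CPM in co-treated cells, 194, 194 and 187 CPM in UVA cells, and 146, 156 and 148 CPM in control cells. It was higher than control by 0.31 ± 0.05 in co-treated cells (adjusted p = 1.18e-05) and by 0.35 ± 0.05 in UVA cells (adjusted p = 9.74e-07). Hmmr, which organises spindle poles, had 191, 198 and 194 CPM in co-treated cells, 202, 182 and 195 CPM in UVA cells, and 169, 181 and 169 CPM in control cells. It was higher by 0.17 ± 0.04 in co-treated cells (adjusted p = 0.00556; 0.0614 on TPM) and by 0.16 ± 0.04 in UVA cells (adjusted p = 0.00711; 0.0534 without control replicate 3 and 0.136 on TPM). Kif2c, a kinesin that takes microtubules apart at centromeres, had 116, 119 and 123 CPM in co-treated cells, 115, 115 and 115 CPM in UVA cells, and 104, 105 and 104 CPM in control cells. It was higher by 0.19 ± 0.04 in co-treated cells (adjusted p = 0.00175) and by 0.14 ± 0.04 in UVA cells (adjusted p = 0.0199). The UVA call ended without control replicate 1, 2 or 3 (0.0641, 0.0511 and 0.0696), with no filter (0.0644) and on TPM (0.0784).

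Among the other 8 spindle genes, Kif11, the kinesin that pushes the spindle poles apart, was lower in UVA than in control cells (-0.12 ± 0.04, adjusted p = 0.0329). Kif11 was not called in co-treated against control cells (-0.09 ± 0.04, adjusted p = 0.118). It averaged 193 ± 6.93 CPM in co-treated, 189 ± 3.76 CPM in UVA and 206 ± 6.88 CPM in control cells (SD, n = 3 each), and its call ended without control replicate 1 (0.0775), control replicate 2 (0.167), UVA replicate 2 (0.0922) or UVA replicate 3 (0.0771). Kif4, Kif18b, Kif22, Tpx2, Nusap1, Dlgap5 and Ckap2l were not called, with UVA values between -0.12 (Ckap2l) and 0.06 (Dlgap5).

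Of the 6 cytokinesis genes, 4 were higher and 1 lower in UVA than in control cells, and 3 were higher and 1 lower in co-treated than in control cells, where 29.3% and 25.8% of all genes were called. Anln, the actin-binding scaffold of the cleavage furrow (chromosome 9, 22243308 to 22300484 on mm39), had 573, 583 and 593 CPM in co-treated cells, 594, 578 and 579.7 CPM in UVA cells, and 489, 490.0 and 478 CPM in control cells. It was higher than control by 0.26 ± 0.04 in co-treated cells (adjusted p = 1.38e-06) and by 0.27 ± 0.04 in UVA cells (adjusted p = 1.03e-06). The partners of centralspindlin, the complex that bundles the central spindle, moved apart. Kif23, its kinesin, had 130.5, 149 and 143 CPM in co-treated cells, 147, 148 and 143 CPM in UVA cells, and 126, 126 and 123 CPM in control cells. It was higher by 0.17 ± 0.05 in co-treated cells (adjusted p = 0.00714; 0.0802 without co-treated replicate 2 and 0.0632 on TPM) and by 0.23 ± 0.05 in UVA cells (adjusted p = 0.00049). Racgap1, its GTPase-activating subunit (chromosome 15, 99518377 to 99549537 on mm39), had 299.9, 306 and 299 CPM in co-treated cells, 311, 314 and 296 CPM in UVA cells, and 340.4, 345 and 348 CPM in control cells. It was lower than control in co-treated cells (-0.19 ± 0.04, adjusted p = 0.000344) and in UVA cells (-0.17 ± 0.04, adjusted p = 0.00126), with no overlap between irradiated and control libraries.

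Kif20a, a kinesin that brings the passenger complex to the midzone, had 149, 158 and 161 CPM in co-treated cells, 154, 159 and 157 CPM in UVA cells, and 141, 142 and 134 CPM in control cells. It was higher by 0.16 ± 0.04 in co-treated cells (adjusted p = 0.00597; 0.0616 without control replicate 3) and by 0.17 ± 0.04 in UVA cells (adjusted p = 0.00386). Ect2, the exchange factor that activates RhoA at the furrow, averaged 171 ± 11.6 CPM in co-treated, 173 ± 9.69 CPM in UVA and 156 ± 3.69 CPM in control cells. Its UVA value of 0.15 ± 0.05 was called (adjusted p = 0.0235), but not without control replicate 1 (0.11), control replicate 3 (0.0686) or UVA replicate 1 (0.157), nor with limma on FPKM (0.111 and 0.109) or TPM (0.27). Prc1, which bundles midzone microtubules, was at 0.09 ± 0.04 in UVA over control cells (adjusted p = 0.121).

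Of the 3 chromosome genes, Mki67 alone was called, in UVA against control cells, where 29.3% of all genes were called. Mki67, which coats mitotic chromosomes and encodes the proliferation antigen Ki-67, had 584, 587 and 614 CPM in co-treated cells, 603, 531 and 588 CPM in UVA cells, and 629, 647 and 621 CPM in control cells. All irradiated libraries lie below the control libraries, at -0.09 ± 0.04 in co-treated cells (adjusted p = 0.127) and -0.14 ± 0.04 in UVA cells (adjusted p = 0.0117; 0.0625 without control replicate 2 and 0.117 without UVA replicate 2). Top2a had 992, 986 and 1047 CPM in co-treated cells, 1047, 986 and 1021 CPM in UVA cells, and 988, 1029 and 985 CPM in control cells. The groups overlap, with a log2 fold change in UVA over control cells of 0.02 ± 0.04 (adjusted p = 0.661), and that of Cdca2 was 0.003 ± 0.07.

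**Figure D4:**
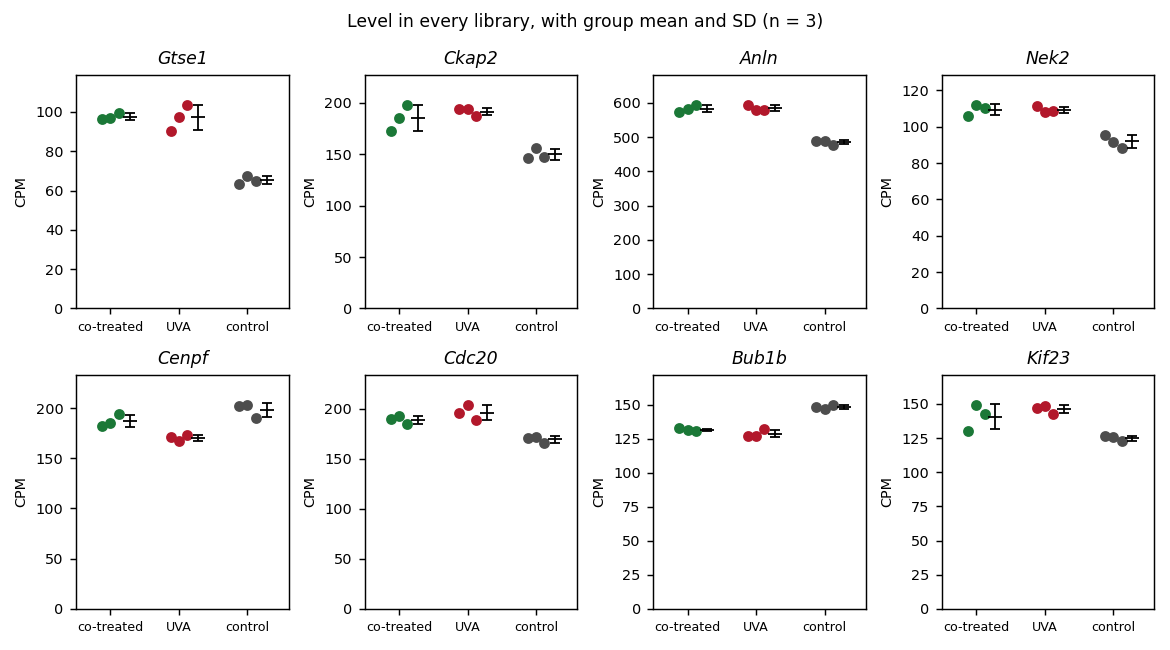
CPM in each library (coloured points) with the group mean and SD (black, n = 3) for the 8 mitosis genes with the smallest p-values in UVA against control cells, in co-treated, UVA and control cells. Gtse1, Ckap2, Anln, Nek2, Cdc20 and Kif23 lie above control in all 6 irradiated libraries and Bub1b below it, while the UVA values of Cenpf, 167 to 173, lie below those of the other groups.

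Exonic length and level, which the choice of genes did not use, overlapped widely between the directions. The 12 genes higher in UVA cells had a median exonic length of 4439.5 bases (1868 to 9063), the 9 lower genes 7461 bases (2866 to 15433) and the 33 uncalled genes 4677 bases. The median level in control cells was 30.7 FPKM for the higher genes (15.9 to 91), 19 FPKM for the lower genes (10.4 to 63.1) and 21 FPKM for the uncalled genes. These differences were not tested.

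Adding alpha-arbutin to UVA moved no member past the threshold. In co-treated against UVA cells, 0 of 54 members were called by edgeR, against 0.0353% of all genes (5 of 14151), and the count was also 0 with DESeq2, with limma and in every other alternative run. At an unadjusted p below 0.05 there were 3 members, all higher in co-treated cells, which is 5.56% of the members against 6.76% of all genes, so this count is no more than the background. Cenpf was 0.14 ± 0.04 higher (adjusted p = 0.623). Cenpe, the kinesin that carries chromosomes to the spindle equator, had 168, 171 and 189 CPM in co-treated cells and 165, 168 and 153 CPM in UVA cells (0.12 ± 0.05, adjusted p = 0.666). Wee1 was 0.12 ± 0.06 higher (adjusted p = 0.709). For these 3 genes the co-treated and UVA libraries do not overlap. The same holds for Cdk1, Ube2c, Kif2c, Tpx2 and Cdca2, whose unadjusted p was above 0.05. The share of all genes without overlap was not counted here either, so the separation is a description only.

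The log2 fold changes of all 54 genes in co-treated over UVA cells ran from -0.15 (Cdc25c) to 0.14 (Cenpf), with a median of -0.002 and 95% intervals that together span -0.30 to 0.27. For Gtse1 the difference was 0.01 ± 0.05 with an interval of -0.10 to 0.11, and for Anln -0.002 ± 0.04 with an interval of -0.07 to 0.07. For Foxm1 it was -0.01 ± 0.04 with an interval of -0.09 to 0.08. The irradiated groups were thus not told apart at this number of libraries, which does not show that they are alike.

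**Figure D5:**
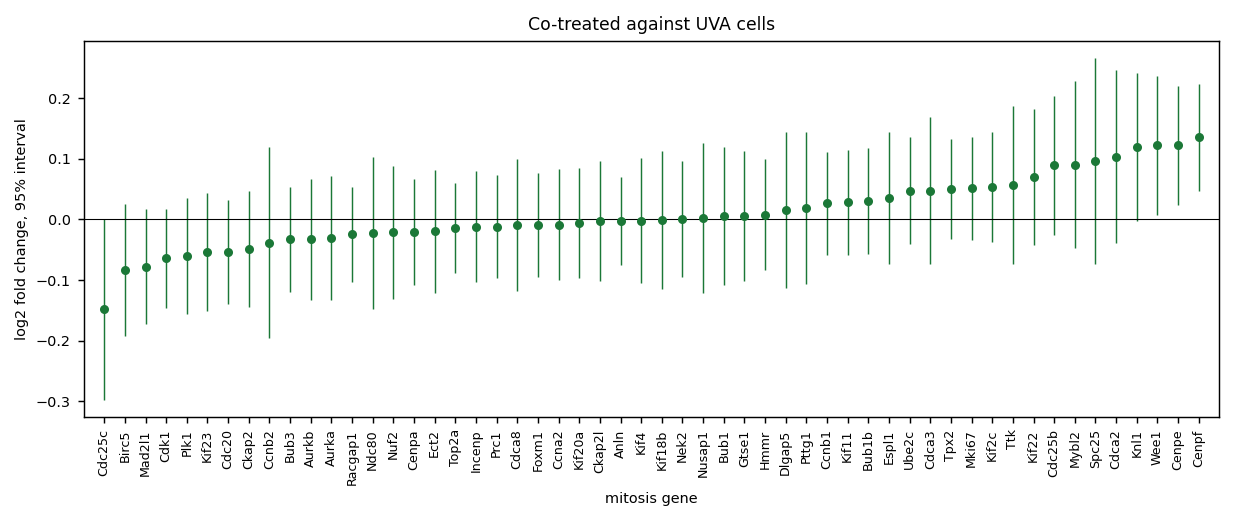
Log2 fold change in co-treated over UVA cells with its 95% interval for the 54 mitosis genes, in order of the estimate. The estimates run from -0.15 for Cdc25c to 0.14 for Cenpf, and none passed the adjusted p of 0.05.

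Of genes that work beside the members, no more than the background share of 29.3% was called in UVA against control cells: 23.5% of APC/C subunits and cofactors, 14.3% of cohesin and condensin genes, 20.6% of other kinetochore genes and 28.1% of other spindle and cytokinesis genes. Of 17 APC/C subunits and cofactors, 2 were higher (Ube2s 0.12 and Anapc16 0.18, log2) and 2 lower (Cdc16 -0.17 and Anapc2 -0.13). Of 21 cohesin and condensin genes, 1 was higher (Stag1, a cohesin subunit, 0.24) and 2 lower (Smc3, of the cohesin ring, -0.14, and Sgo1, the cohesin protector, -0.19). Among 34 other kinetochore genes 3 were higher and 4 lower, including Zwint at 0.26, Mis12 at 0.18 and Cenpb at -0.22. Among 32 other spindle and cytokinesis genes 5 were higher and 4 lower, including the tubulins Tubb4b at 0.30 and Tubb5 at -0.17, the cyclin Ccnf at 0.25 and the kinesin Kif14 at -0.30. The medians of these lists were -0.021, -0.044, -0.058 and -0.008, against 0.003 over all genes.

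The complex that represses and activates cell cycle genes (MuvB with DREAM partners) had 1 of 12 genes higher, its core subunit Lin9 at 0.37, and 3 lower, E2f4 at -0.26, Rbl2 (p130) at -0.25 and Tfdp2 at -0.16, or 33.3% against the 29.3% of all genes. Of 15 genes of the G2 checkpoint and mitotic phosphatases only Ccng1 was called (6.67%), at 0.64. Of 40 S phase genes 9 were higher and 4 lower (32.5%, near the share of all genes), with a median of 0.049, including Ccne2 (cyclin E2) at 0.40, Rrm2 at 0.28, Rpa1 at -0.30 and Pole at -0.23. Of 23 p53 targets 20 were tested, with 10 higher, 3 lower (65% of those tested) and a median of 0.198, including Cdkn1a at 0.98, Eda2r at 0.91, Mdm2 at 0.86 and Ccng1 at 0.64, which stands in both lists. In co-treated against UVA cells none of the genes of these 8 lists was called, where 0.0353% of all genes were called. At an unadjusted p below 0.05 there were 8 of the 32 other spindle and cytokinesis genes, 5 higher and 3 lower. That is 25%, against 6.76% of all genes, and the lowest adjusted p in this list was 0.626. In each other list the share was at most 6.67%. These shares were not tested.

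Shared positions limit some counts. Overlapping genes were found for 28 of the 54 members. For 6 of them the partner on the opposite strand had, in its own count, over 10% as many reads as the member. These were Kif4 with Pdzd11 (57.9%), Cdc20 with Elovl1 (47.3%), Kif20a with Cdc23 (43.9%), Ccna2 with Exosc9 (35.5%), Nusap1 with Oip5 (30.2%) and Cdca8 with 9930104L06Rik (10.1%). How many reads the pairs share was not measured. No source used here states whether the counting used strand, so reads of such pairs may not be told apart. Of the called members, Cdc20 and Kif20a are touched, and in UVA over control cells their partners Elovl1 and Cdc23 had log2 fold changes of 0.03 and -0.15, neither called. Ccnb2 may share reads with its copy Ccnb2-ps, which held 7.56% as many reads.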

How the data were processed

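RNA of 9 NIH/3T3 libraries was sequenced. Per the file headers, the deposited table holds a raw count and an FPKM value per gene and library, beside exonic sizes and coordinates. Programs listed in the submitters' processing notes, without roles, are HISAT2 2.2.1, HTSeq 0.6.1, cutadapt 1.9.1 and bcl2fastq 2.20.0.422, with the build mm39. The deposited FPKM equals the count over exonic size and library total (510219 of 510219 values within 0.01). Whether counting used strand is not given in the sources used here. Total counts per library were 16.3 to 20.86 in units of 1e6.

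Counts of 14151 genes (filterByExpr) were TMM-scaled (factors 0.992 to 1.007) and tested with edgeR 4.0.16 in R 4.3.3: quasi-likelihood F-test, two-sided, all 9 libraries, group only, Benjamini-Hochberg over all tested genes, called at 0.05. All adjusted p-values are from this test unless limma or TPM is named. Alternatives were DESeq2 1.42.0, other size factors, no low-count filter, the compared groups only, a replicate block, limma 3.58.1 on log2(FPKM + 1), log2(FPKM + 0.1) and log2(TPM + 1), and leaving out each library. The script was tested on simulated data, with changes larger than those of any member. That test does not show how well changes of the members' size are recovered. No replicate pair was identical or within sampling noise.

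The members and gene lists were chosen with earlier results of these data known. Values per library are given, by role, for up to 4 called members with the smallest p (else the smallest p), for Cdk1, Ccnb1, Plk1, Foxm1, Top2a and Mki67, and for Cdkn1a; other lists give up to 4 called genes, of which 1 is not reported here; Kif11, Ect2 and Cenpe were added after their values were seen. The listed symbols Fam64a and Claspn matched no row. Precision is set by 3 libraries per group.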

Additional observations from a re-analysis of the deposited data

How the results depend on the processing

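The count of mitosis genes called in UVA against control cells (21) was 15 to 21 when a library was left out and 19 to 22 under the other alternatives; in co-treated against control cells (15) it was 12 to 16 and 13 to 18, and in co-treated against UVA cells 0 throughout. Of the 21 calls, 11 were kept under every alternative (Cdk1, Nek2, Bub1b, Cdc20, Cenpf, Ckap2, Gtse1, Kif20a, Kif23, Anln and Racgap1), and of the 15 co-treated calls 8. Uncalled members passed in some alternative for 5 genes in UVA and 6 in co-treated against control cells. No called gene changed sign. The median of the members in UVA against control cells (0.024) was -0.0278 on TPM, and 0.012 (control replicate 1) to 0.0441 (control replicate 2) when a library was left out; in co-treated against UVA cells (-0.0017) it was 0.0233 on TPM, and in co-treated against control cells (0.018) -0.0092 on TPM and 0.0092 to 0.0387 when a library was left out. The cause was not tested. Over all genes, the co-treated against UVA count (5) was 13 with DESeq2, 29 with no low-count filter, 19 with the replicate block, 0 with limma on log2(FPKM + 1), log2(FPKM + 0.1) or log2(TPM + 1), and 1 to 22 when a library was left out. The replicate block gave 21 members in UVA and 16 in co-treated against control cells. Deviations of same-numbered libraries correlated at -0.009 to 0.076, and those of differently numbered libraries at -0.071 to 0.027. Between co-treated and UVA cells the same-numbered values were 0.045, 0.039 and 0.076, and the highest of the others was 0.026. The correlations are weak, and whether the numbers mark a pairing of these groups was not tested. With 3 libraries per group, intervals near 0.1 on the log2 scale limit what can be told apart.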
